A study of Mus musculus with 6 samples.

Results

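The genes described here encode the proteins of tight junctions and gap junctions: claudins, occludin and its relatives, junctional adhesion molecules, the cytoplasmic plaque proteins of the ZO and cingulin families, connexins and pannexins. They were taken by symbol from rows of the deposited table that name exactly 1 gene, with the highest-mean row kept where a gene had several, which gave 57 genes of 22179 tested. Of the 57, 31 are claudins, 4 belong to the MARVEL family of occludin, 3 are junctional adhesion molecules, 4 are plaque proteins, 12 are connexins and 3 are pannexins. Among the claudins, 8 belong to the rodent Cldn34 group, 1 of them a pseudogene (Cldn34-ps).

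Tight junctions join neighbouring epithelial cells near their free surface and decide what passes between them. Claudins form the strands and set which ions and molecules can cross, occludin and tricellulin (Marveld2) organise the strands and the corners where cells meet, and ZO and cingulin proteins anchor them to the actin skeleton. Gap junctions are made of connexins and let small molecules pass directly from cell to cell, while pannexins mainly form channels that release ATP. In the lung, the claudin barrier of the alveolar epithelium keeps the airspaces dry, and gap junctions carry calcium signals between alveolar cells.

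All samples came from mice with conditional alleles of Rb, p53 and p130 that were given Adeno-Cre into the trachea, and that also carried an allele reporting Hes1, a repressor induced by Notch signalling, as GFP. Small-cell lung cancers (SCLC) were collected 5 to 6 months after Cre, tumours of 3 mice were pooled, and cells were sorted into GFP-negative (labelled negative or low) and GFP-high. Each population gave 3 samples, hybridised to Affymetrix Mouse Gene 2.0 ST arrays, so the study holds 1 comparison. Neither strain, age nor the promoter driving Cre is given in the sources used here, and no marker is named that separated tumour cells from host lung cells in the sort. Titles call the samples biological replicates, but nothing says whether each came from its own pool, so p-values measure the spread between these samples. The values are log2 expression after RMA, and a difference of 1 on that scale is a doubling. All differences below are GFP-high minus GFP-negative.

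Hes1 read 10.27 to 10.49 in GFP-high and 6.65 to 6.98 in GFP-negative arrays, in the direction of the sort. Of 8 measured neuroendocrine markers, which define SCLC, 7 fell in GFP-high cells and 1, Nkx2-1, rose. The mean log2 level of the neuroendocrine list was 9.86 to 9.95 in the GFP-negative and 7.71 to 8.52 in the GFP-high arrays, with GFP-high replicate 3 the highest of its group. Markers of other lung cells moved with the groups. Club and secretory markers were higher in 8 of 10 (list means of 7.35 to 8.12 against 11.19 to 11.54), alveolar type 2 markers in 8 of 10 (6.38 to 6.72 against 9.47 to 9.90) and alveolar type 1 markers in 9 of 10 (6.55 to 6.75 against 8.47 to 8.72). Fewer were called among endothelial (2 higher and 1 lower of 10), pan-leukocyte (1 and 1 of 10), fibroblast and pericyte (1 and 1 of 10), ciliated (1 and 2 of 9) and basal (1 and 0 of 5) markers, and 4 of 6 mesothelial markers were higher, with list means of 4.65 to 4.81 against 5.14 to 5.32. Over all genes tested 13% were called higher and 17% lower. Single markers in these lists still changed strongly, with Kdr (3.87), Lcp1 (3.25) and Dynlrb2 (3.10) higher and Vwf (-2.07) and Dcn (-1.47) lower. The endothelial list shares Cldn5 and the mesothelial list Cldn15 with the junction genes, and neither was called. No marker is at 0, because RMA gives none. In sorted bulk cells, fewer cells of a type and less RNA per cell cannot be told apart, and the part of these cell types in the junction results was not tested.

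Junction genes changed in both directions. Of the 57, 15 (26.3%) rose in GFP-high cells and 5 (8.77%) fell (limma, Benjamini-Hochberg adjusted p under 0.05 over all genes), and 37 did not pass. Over all genes tested 13% were higher and 17% lower, 30% in either direction, so the 35.1% of junction genes called lay near the background. At a log2 difference of at least 1 the counts were 8 higher (14.0%, against 5.63% of all genes) and 4 lower (7.02%, against 6.02%). The median difference of the 57 was 0.16, beside 0.01 over all genes. Non-overlapping groups were seen for 27 of the 57 (47.4%), beside 44.6% of all genes tested.

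**Figure D1:**
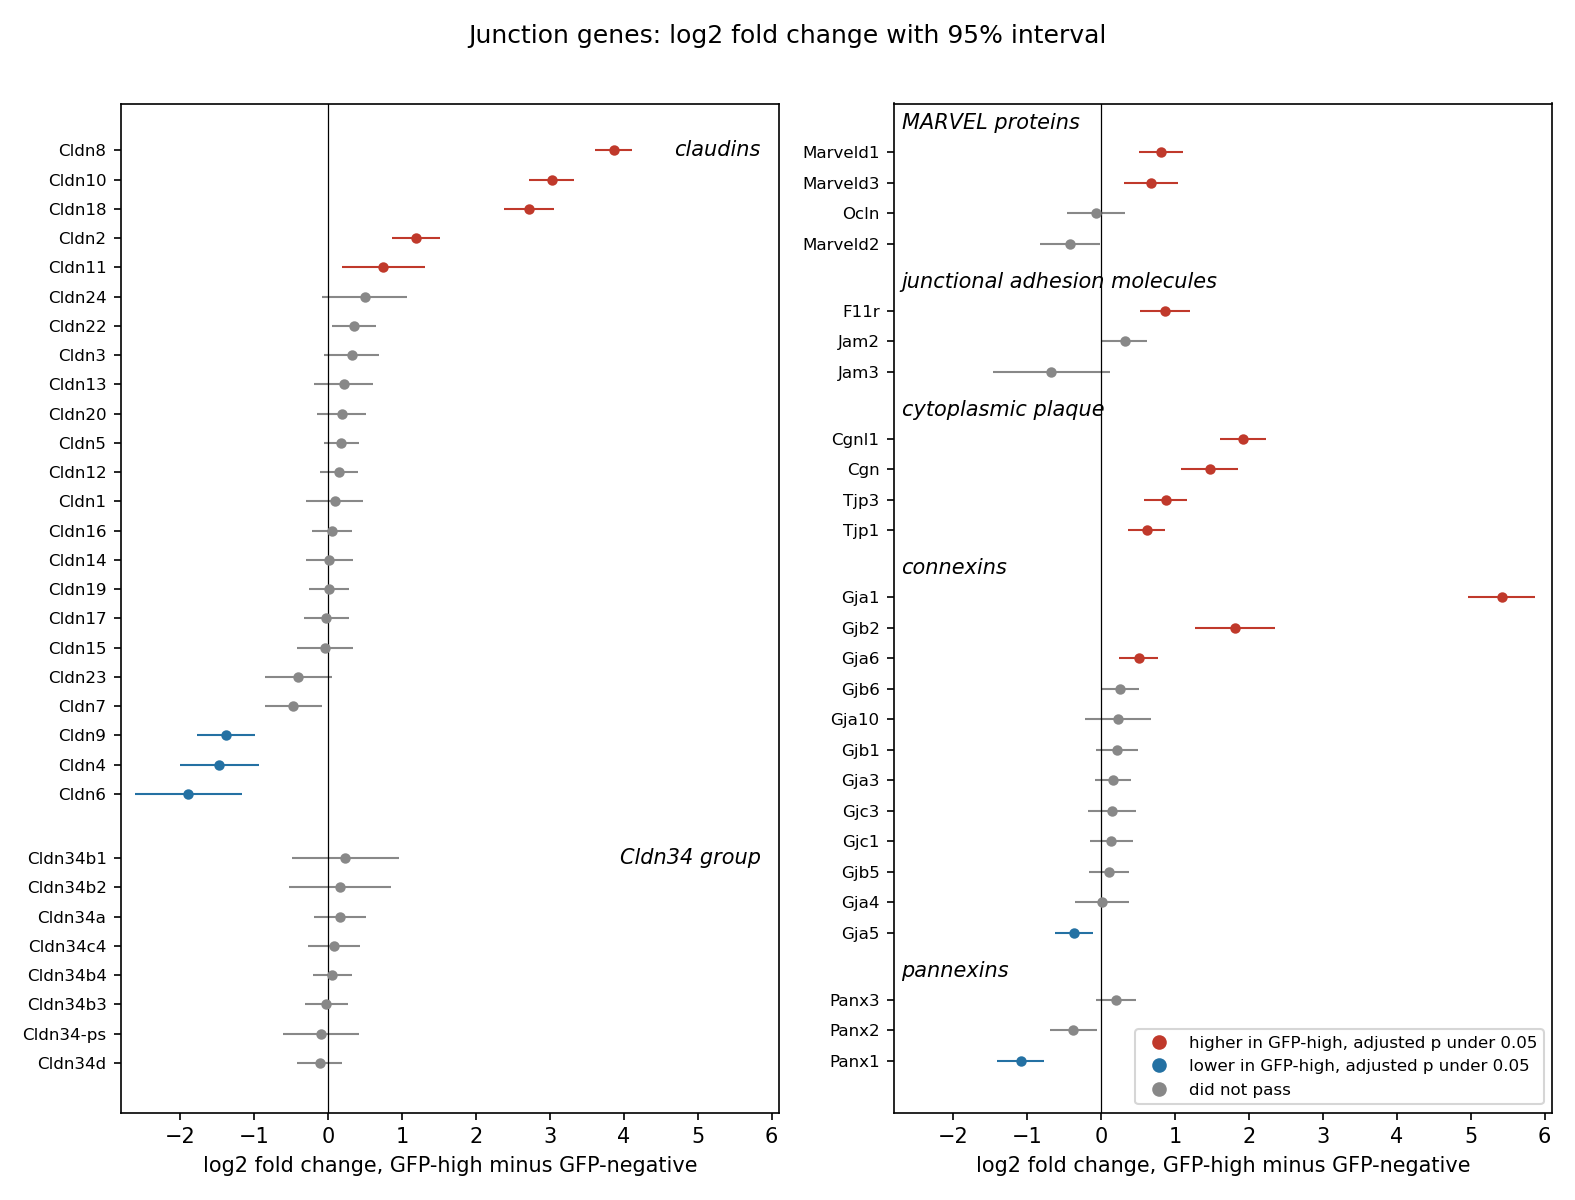
Log2 difference (GFP-high minus GFP-negative) of each of the 57 junction genes, grouped by protein family; points are differences of means over 3 arrays per group, lines are 95% intervals from limma, and colour marks the call. Gja1 lies farthest right at 5.42, followed by Cldn8, Cldn10 and Cldn18, and Cldn6 lies farthest left at -1.89, while most other claudins and connexins sit near 0.

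Gja1, the connexin that couples alveolar epithelium, fibroblasts and heart muscle, rose more than any other junction gene. It read 4.88, 4.77 and 4.44 in the GFP-negative arrays and 10.40, 9.71 and 10.24 in the GFP-high arrays. Every GFP-high array thus lay far above every GFP-negative array, and GFP-high replicate 2 was the lowest of its group. The difference of 5.42 ± 0.20 (SE) was a 42.8-fold change (limma, adjusted p = 4.78e-07). The GFP-negative values lay in a low range in which RMA compresses differences, so this fold is not an exact ratio. In these arrays the median difference was 4.48 over the club and secretory markers, 3.06 over those of alveolar type 2 cells and 1.56 over those of type 1 cells. Fibroblast and pericyte markers had a median of 0.29 and mesothelial markers 0.64. Their part in the Gja1 difference was not tested. The 250 bases before the annotated start of Gja1 (GRCm38.p6, chr10:56377050-56377299, plus strand) are shown because this gene changed most.

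Gja1: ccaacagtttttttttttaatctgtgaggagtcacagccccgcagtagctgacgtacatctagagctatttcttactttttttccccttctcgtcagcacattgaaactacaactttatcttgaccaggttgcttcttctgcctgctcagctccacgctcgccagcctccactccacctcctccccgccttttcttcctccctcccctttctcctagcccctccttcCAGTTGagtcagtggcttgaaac

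The sequence comes from the RefSeq promoter table, which held 44 of the 57 members. Capitals mark matches, on either strand, to 4 motifs: the N-box CACNAG bound by Hes proteins, the E-box CANNTG, the Grainyhead-like site AACCNGTT and the TEAD site GGAATG; where matches overlap, the capitals run together. Of 32851 promoters in the table, 36.7% held an N-box in these 250 bases, 66.2% an E-box, 1.79% a Grainyhead-like site and 12.6% a TEAD site. Among the 59 promoters of junction genes the counts were 22, 39, 3 and 7. The Gja1 window held 1 E-box and no other of these motifs. A match describes letters only.

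Among the other connexins Gjb2, the connexin of the inner ear and of many glandular epithelia, rose. It read 5.87, 4.82 and 5.26 in the GFP-negative and 6.99, 7.23 and 7.15 in the GFP-high arrays. The GFP-negative arrays scattered more (SD 0.53) than the GFP-high arrays (SD 0.12), and the groups did not overlap. Gjb2 was 3.51-fold higher (1.81 ± 0.24, limma adjusted p = 0.000528).

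Gja6 rose by less, from 4.06, 4.02 and 4.24 to 4.55, 4.72 and 4.58 (0.51 ± 0.12, limma adjusted p = 0.00986). Gja5, a connexin of arterial endothelium and cardiac conduction tissue, was the one connexin called lower. It read 5.04, 5.14 and 4.93 in GFP-negative and 4.59, 4.74 and 4.65 in GFP-high cells (-0.37 ± 0.11, limma adjusted p = 0.0353). That call was lost without any of 5 arrays and kept only without GFP-negative replicate 3 (adjusted p 0.0432 to 0.114 over the 6 omissions). The remaining 8 connexins, Gja3, Gja4, Gja10, Gjb1, Gjb5, Gjb6, Gjc1 and Gjc3, differed by 0.01 to 0.26 and did not pass. Their values stayed between 2.23 and 5.30 on all arrays, a range in which RMA compresses differences, and no detection calls were used here. All values of the called Gja6 and Gja5 lay in that range too.

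Of the 3 pannexins 1 fell and the other 2 did not pass, so 33.3% were called, against 30% of all genes. Panx1, the widely expressed ATP release channel, read 7.50, 7.87 and 7.59 in GFP-negative and 6.50, 6.44 and 6.74 in GFP-high cells. All 3 GFP-high values lay below the GFP-negative ones, and Panx1 was 2.13-fold lower (-1.09 ± 0.14, limma adjusted p = 0.000477). Panx2, known mainly from neurons, differed by -0.38 ± 0.14 without overlap of the groups but did not pass (limma adjusted p = 0.0758). With 1 array left out it passed only without GFP-high replicate 2 (limma adjusted p 0.0304 to 0.206 over the omissions). Panx3, known from bone and skin, differed by 0.20 ± 0.12 (limma adjusted p = 0.25).

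Of the 31 claudins 5 were higher (16.1%, against 13% of all genes), 3 lower (9.68%, against 17%) and 23 did not pass. The share called was 25.8%, against 30% of all genes. Without the Cldn34 group, which read low on every array, 8 of 23 claudins were called (34.8%). Of those 23, 21.7% were higher and 13.0% lower. The 3 largest rises were Cldn8, Cldn10 and Cldn18. Cldn8, a barrier-forming claudin of kidney collecting duct, colon and airway, read 4.70, 4.60 and 4.69 in GFP-negative and 8.40, 8.57 and 8.60 in GFP-high cells. The groups were far apart for their spread (SD 0.05 and 0.11), and the difference of 3.86 ± 0.11 was 14.5-fold (limma, adjusted p = 1.83e-07). The GFP-negative values of Cldn8 lay in the low range given above for connexins, so this fold is not an exact ratio. Cldn10, a channel-forming claudin whose isoforms start at different exons and which is used as a marker of club cells, read 5.89, 5.75 and 6.02 against 9.10, 8.79 and 8.84. The groups were separate, and Cldn10 was 8.13-fold higher (3.02 ± 0.13, limma adjusted p = 1.09e-06).

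Cldn18, the claudin that seals the alveolar epithelium and, as another isoform, the stomach lining, read 6.43, 6.91 and 6.49 in GFP-negative and 9.33, 9.41 and 9.23 in GFP-high cells. It was 6.56-fold higher (2.71 ± 0.15, limma adjusted p = 4.24e-06), again without overlap. Alveolar type 1 and type 2 and club markers, listed above, were higher in the same arrays. Cldn5, a claudin of endothelium and alveolar epithelium, read 4.24 to 4.36 in GFP-negative and 4.46 to 4.52 in GFP-high cells. That difference of 0.18 ± 0.10 did not pass (limma adjusted p = 0.244, 95% interval -0.06 to 0.42). Cldn3, a claudin found in most simple epithelia including the lung, read 10.90, 11.19 and 10.56 against 11.26, 11.10 and 11.25 and did not pass either (0.32 ± 0.16, limma adjusted p = 0.195, interval -0.06 to 0.69).

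Cldn10 and Cldn18 each have 2 annotated starts in the RefSeq table, and the array value of a gene does not tell them apart. The 2 windows of Cldn10 are shown because they differ in composition: the upstream start (GRCm38.p6, chr14:118787621-118787870, plus strand) has 36% G and C with 4 CG pairs, and the downstream start (chr14:118854700-118854949, plus strand) 72.4% with 22, beside medians of 52.4% and 6 over all promoters.

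Cldn10 upstream start: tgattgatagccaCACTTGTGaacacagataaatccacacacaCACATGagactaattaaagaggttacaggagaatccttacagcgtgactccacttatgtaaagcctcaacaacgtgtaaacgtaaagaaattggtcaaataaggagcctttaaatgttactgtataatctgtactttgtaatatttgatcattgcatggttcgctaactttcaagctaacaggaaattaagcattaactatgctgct

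Cldn10 downstream start: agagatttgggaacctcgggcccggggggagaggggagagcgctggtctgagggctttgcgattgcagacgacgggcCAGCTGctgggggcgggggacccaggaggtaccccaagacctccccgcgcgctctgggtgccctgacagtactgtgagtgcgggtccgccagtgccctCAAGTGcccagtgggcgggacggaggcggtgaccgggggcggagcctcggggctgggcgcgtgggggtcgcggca

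The upstream window held 1 N-box, overlapping 1 of its 2 E-boxes, and the downstream window held 2 E-boxes. Both windows of Cldn18 held 2 E-boxes, and its upstream window also held 2 N-boxes.

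Cldn2 and Cldn11 rose by less, and all values of Cldn2 lay in the low range given above for connexins. Cldn2, a pore-forming claudin of leaky epithelia such as kidney proximal tubule and gut, read 4.14, 3.65 and 3.91 in GFP-negative and 5.10, 5.02 and 5.16 in GFP-high cells, a 2.28-fold difference (1.19 ± 0.14, limma adjusted p = 0.000333). Cldn11, the claudin of myelin and Sertoli cells, read 6.81, 6.72 and 6.92 against 8.19, 7.15 and 7.35. GFP-high replicate 1 stood above the other GFP-high arrays, and the difference of 0.75 ± 0.24 passed narrowly (limma adjusted p = 0.0488). Without GFP-high replicate 1 the Cldn11 difference was 0.43 (adjusted p = 0.06). The call was kept only without GFP-high replicate 2 and lost without each of the other 5 arrays (adjusted p 0.0238 to 0.129).

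The 3 claudins that fell were Cldn6, Cldn4 and Cldn9. Cldn6, a claudin of embryonic epithelia, read 7.27, 8.08 and 7.25 in GFP-negative and 5.24, 5.36 and 6.32 in GFP-high cells. GFP-high replicate 3 was nearest to the GFP-negative arrays, but the groups did not overlap (-1.89 ± 0.32, 3.71-fold lower, limma adjusted p = 0.00201). Cldn4, a widespread epithelial barrier claudin, read 11.12, 11.24 and 10.46 against 9.68, 9.09 and 9.64 and was 2.77-fold lower (-1.47 ± 0.23, limma adjusted p = 0.00156). Cldn9, known from the inner ear and from developing epithelia, read 7.12, 7.64 and 7.24 against 5.92, 5.75 and 6.18 and was 2.61-fold lower (-1.38 ± 0.17, limma adjusted p = 0.000385). GFP-high replicate 3 was the GFP-high array closest to the GFP-negative mean for 3 of the 5 junction genes called lower (Cldn6, Cldn9 and Panx1). Replicate 1 was the closest for Cldn4 and replicate 2 for Gja5. The neuroendocrine list median of replicate 3 was the nearest to the GFP-negative cells, -1.74 against -2.49 and -2.74. Whether these go together was not tested. Among the 15 genes called higher, each GFP-high array was the closest one 5 times. Promoter windows of Cldn4 (GRCm38.p6, chr5:134946935-134947184, minus strand) and Cldn6 (chr17:23679115-23679364, plus strand) are shown as those of the falling claudins held by the table.

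Cldn4: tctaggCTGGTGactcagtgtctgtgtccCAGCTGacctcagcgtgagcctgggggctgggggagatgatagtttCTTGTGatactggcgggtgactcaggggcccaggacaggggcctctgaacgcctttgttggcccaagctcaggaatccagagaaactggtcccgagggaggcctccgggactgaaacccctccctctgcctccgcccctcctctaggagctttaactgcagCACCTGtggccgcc

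Cldn6: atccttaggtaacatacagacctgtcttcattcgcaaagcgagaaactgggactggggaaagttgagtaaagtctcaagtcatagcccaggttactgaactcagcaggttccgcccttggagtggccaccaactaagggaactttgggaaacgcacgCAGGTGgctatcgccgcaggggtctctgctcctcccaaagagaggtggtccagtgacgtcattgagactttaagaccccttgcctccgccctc

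Cldn4 had 2 N-boxes and 2 E-boxes in this window and Cldn6 had 1 E-box. Of the 4 promoters of junction genes called lower in the table, 3 held an N-box and 2 an E-box. Of the 16 promoters of those called higher, 6 held an N-box and 14 an E-box, with some genes counted at more than 1 start. Over all promoters 36.7% held an N-box and 66.2% an E-box. These counts are small and were not tested.

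**Figure D2:**
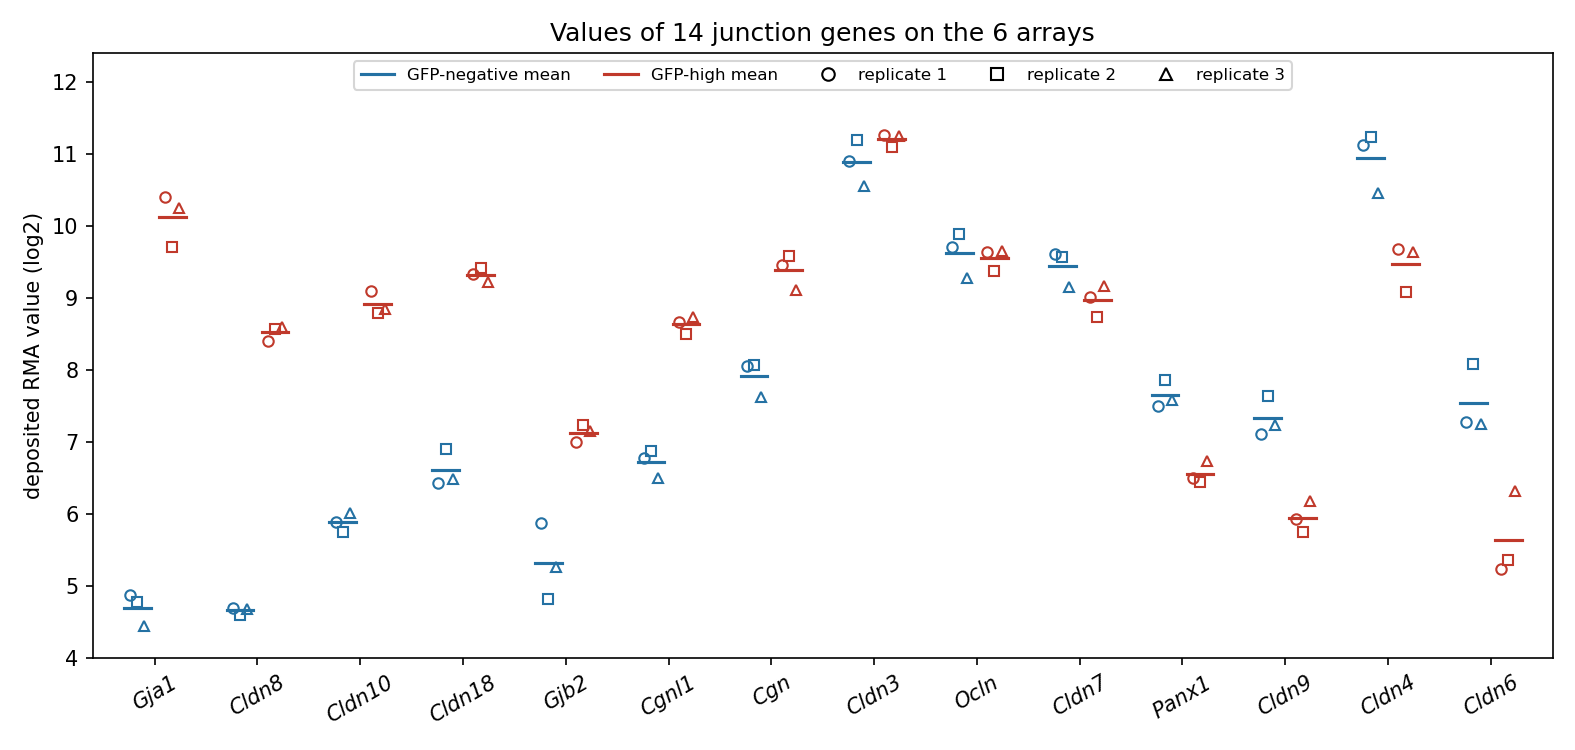
Deposited log2 values of 14 junction genes on each of the 6 arrays; blue symbols are GFP-negative, red symbols GFP-high, symbol shape gives the replicate number and bars are group means. Gja1, Cldn8, Cldn10, Cldn18, Gjb2, Cgnl1 and Cgn have every GFP-high value above every GFP-negative value, Panx1, Cldn9, Cldn4 and Cldn6 the opposite, and the groups overlap for Cldn3, Ocln and Cldn7.

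Of the 15 other claudins outside the Cldn34 group that did not pass, differences ran from -0.47 to 0.49, and the groups did not overlap in 2 (Cldn5 and Cldn22). Cldn7, a basolateral epithelial claudin, had the lowest of these differences. It read 9.61, 9.57 and 9.14 in GFP-negative and 9.01, 8.74 and 9.17 in GFP-high cells (-0.47 ± 0.17, limma adjusted p = 0.0669). With 1 array left out it passed only without GFP-negative replicate 3 (limma adjusted p 0.0227 to 0.199 over the omissions). Cldn24 read 3.80, 3.71 and 3.73 against 4.61, 4.54 and 3.57, so that GFP-high replicate 3 alone lay with the GFP-negative arrays (0.49 ± 0.25, limma adjusted p = 0.188). Without it the difference was 0.83 and passed (limma adjusted p = 0.00169). With any other array left out Cldn24 did not pass (limma adjusted p up to 0.457). All its values lay in the low range given above for connexins. The 8 Cldn34 genes, which are similar copies on the X chromosome, read between 1.87 and 3.95 on every array, differed by -0.11 to 0.23, and had overlapping groups throughout.

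Ocln, occludin, did not pass. It read 9.71, 9.88 and 9.27 in GFP-negative and 9.63, 9.38 and 9.66 in GFP-high cells, with overlapping groups and a difference of -0.06 ± 0.17 (limma adjusted p = 0.824). The 95% interval ran from -0.46 to 0.33. Its relative Marveld2, tricellulin, read 9.05, 8.87 and 8.47 against 8.45, 8.12 and 8.56 and did not pass (-0.42 ± 0.18, limma adjusted p = 0.116), except without GFP-negative replicate 3 (0.0349). Marveld3, the third MARVEL protein of tight junctions, rose from 7.99, 7.85 and 7.41 to 8.35, 8.50 and 8.42 (0.67 ± 0.16, limma adjusted p = 0.0115). Marveld1, whose groups did not overlap, rose from 8.06 ± 0.17 to 8.87 ± 0.12 (SD, n = 3 each; difference 0.81 ± 0.13 SE, limma adjusted p = 0.00155).

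All 4 plaque genes measured rose, also after quantile normalization or with array medians subtracted, and their groups did not overlap. Over all genes tested 13% were called higher and 44.6% had groups that did not overlap. In the same arrays the marker medians were 4.48 for club cells and 3.06 and 1.56 for alveolar type 2 and type 1 cells. Every other marker list had a lower median, and the part of these cell types was not tested. Cgnl1, paracingulin, a regulator of small GTPases at junctions, read 6.77, 6.88 and 6.50 in GFP-negative and 8.67, 8.50 and 8.74 in GFP-high cells and was 3.78-fold higher (1.92 ± 0.14, limma adjusted p = 1.84e-05). Cgn, cingulin, which links ZO proteins to actomyosin and microtubules, read 8.06, 8.06 and 7.63 against 9.46, 9.58 and 9.11 and was 2.76-fold higher (1.47 ± 0.17, limma adjusted p = 0.000282).

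Of the ZO scaffolds, which bind the tails of claudins, Tjp3 read 8.48, 8.54 and 8.20 against 9.23, 9.36 and 9.24 (0.87 ± 0.13, limma adjusted p = 0.000902). Tjp1 read 9.85, 9.90 and 9.71 against 10.43, 10.45 and 10.43, a 1.53-fold difference with little spread among the GFP-high arrays (0.62 ± 0.11, limma adjusted p = 0.00254). Among the junctional adhesion molecules, immunoglobulin-like proteins of the junction, F11r (JAM-A) of epithelia and platelets rose. It read 9.28, 9.47 and 8.93 in GFP-negative and 10.15, 10.08 and 10.05 in GFP-high cells, 1.82-fold higher (0.87 ± 0.15, limma adjusted p = 0.00228).

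Jam2 and Jam3, the relatives known from endothelium and other cells, did not pass (0.32 ± 0.14 and -0.68 ± 0.35, limma adjusted p = 0.118 and 0.189). Jam3 read 5.82 on GFP-negative replicate 3 against 4.70 and 4.24 on the other GFP-negative arrays. With 1 array left out it passed only without GFP-negative replicate 2 (-1.02, limma adjusted p 0.0459 to 0.433 over the omissions).

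Several junction genes lie side by side in the genome, with no protein-coding gene between them in the RefSeq table (assembly GRCm38.p6), and neighbours did not always share a change. Cldn8 rose by 3.86 while its neighbour Cldn17 differed by -0.02 ± 0.14 (95% interval -0.33 to 0.29). Cldn17 read only 3.23 to 3.61 over all arrays, in the low range given above for connexins, where a change could be missed. Cldn4 fell by 1.47 ± 0.23 while its neighbour Cldn3 differed by 0.32 ± 0.16. Gjb2 rose by 1.81 ± 0.24 between Gja3 (0.16 ± 0.11) and Gjb6 (0.26 ± 0.11), which did not pass. Cldn6 and Cldn9, also neighbours, both fell. The differences between neighbours were not tested.

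**Figure D3:**
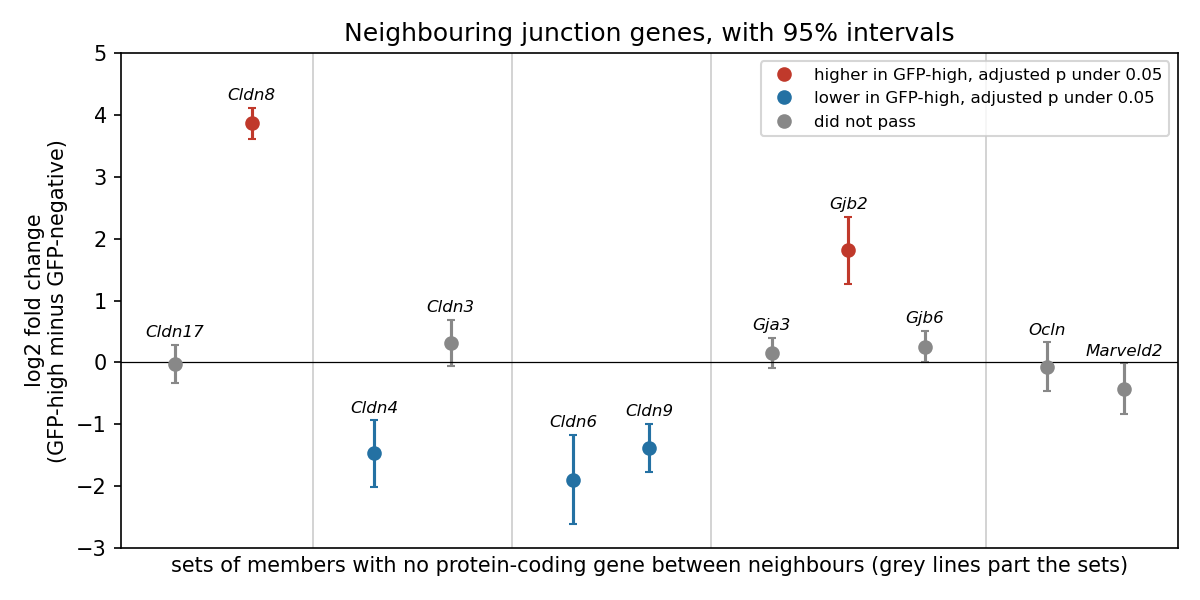
Log2 differences (GFP-high minus GFP-negative, vertical axis) of junction genes that are direct neighbours among protein-coding genes, with 95% intervals from 3 arrays per group; colour marks the call. Cldn8 at 3.86 stands beside Cldn17 at -0.02, and Cldn4 at -1.47 beside Cldn3 at 0.32, while Cldn6 and Cldn9 both lie below 0. Cldn17, Gja3 and Gjb6 read low on every array.

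Genes of other junction parts were counted from lists chosen by function, beside the 30% of all genes called. Scaffold and polarity genes of the tight junction were 10 higher, 6 lower and 8 not passing of 24 (median 0.38). The polarity kinase gene Prkci rose by 1.63 ± 0.12, the angiomotin genes Amotl2 and Amotl1 by 1.53 ± 0.14 and 1.45 ± 0.13, and the polarity scaffold Pard3b by 1.52 ± 0.18. Among those lower were Lin7a (-1.43 ± 0.39), Pard6g (-0.88 ± 0.15), Lin7c (-0.57 ± 0.13) and the basolateral scaffold Scrib (-0.51 ± 0.12). Of the 3 angulins of cell corners, Lsr fell by 0.46 ± 0.14 and Ildr1 (-0.21 ± 0.17) and Ildr2 (0.42 ± 0.15) did not pass. Adherens junction genes were 4 higher and 2 lower of 11 (median 0.16). Nectin3 (2.02 ± 0.16) and Nectin4 (1.75 ± 0.15), adhesion molecules of that junction, rose and Nectin1 fell (-0.99 ± 0.14). E-cadherin, Cdh1, did not pass (-0.26 ± 0.13, limma adjusted p = 0.182).

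Desmosome genes were 3 higher and 2 lower of 12 (median 0.02). Periplakin, Ppl, rose by 1.04 ± 0.17, plakophilin Pkp2 by 0.73 ± 0.17, and Dsc2, a desmosomal cadherin, fell by 1.49 ± 0.25. Channels outside the member list were 2 higher and 3 lower of 11 (median -0.01). The neuronal connexin Gjd2 fell by 0.53 ± 0.13. The volume-regulated anion channel genes split, with Lrrc8e (0.88 ± 0.15) and Lrrc8c (0.79 ± 0.16) higher, Lrrc8b lower (-1.50 ± 0.14), and Lrrc8a and Lrrc8d near 0 (-0.01 ± 0.11 and -0.03 ± 0.10).

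**Figure D4:**
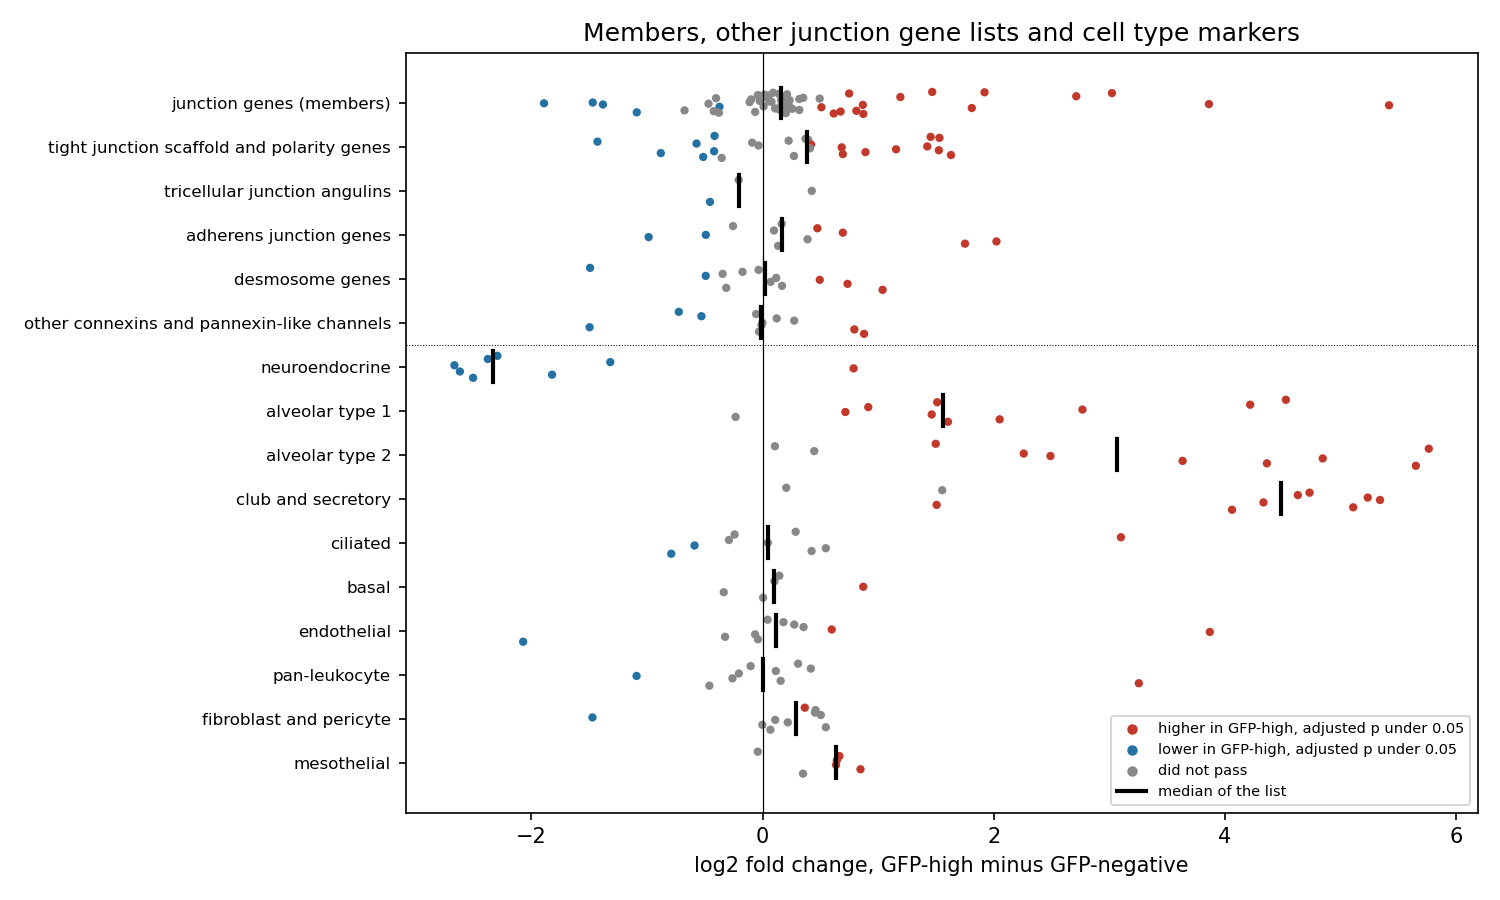
Log2 differences (GFP-high minus GFP-negative, horizontal axis) of the junction genes, of 5 lists of other junction or channel genes and, below the dotted line, of 10 lists of cell type markers; each point is a gene, colour marks the call and black bars are list medians. The junction genes have a median of 0.16 with single genes reaching 5.42, while club, alveolar type 2 and alveolar type 1 markers have medians of 4.48, 3.06 and 1.56 and neuroendocrine markers -2.34. Cldn5 is also in the endothelial list and Cldn15 in the mesothelial list.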

How the data were processed

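The authors deposited log2 expression values made with RMA, per the submitters' processing notes. Neither the RMA version nor the annotation release is given in the sources used here. RMA corrects background, equalises the distributions of arrays and summarises probes, so a change common to most genes is removed and low values are compressed. The log2 scale follows from the values (0.989 to 13.72, array medians 5.30 to 5.43). Precision is limited by the 3 arrays in each group.

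Of 41344 rows, 23520 name 1 gene in the platform annotation, 1814 several and 16010 none. Single-gene rows, the highest-mean row per gene, gave 22179 genes. No gene was removed for a low value, and symbols were checked against RefSeq. Groups were compared with limma 3.58.1 in R 4.3.3 (lmFit, eBayes, 4 residual and 4.50 prior degrees of freedom), without a block, two-sided, with Benjamini-Hochberg adjustment over all genes and a threshold of 0.05. No permutation p is given, since 3 against 3 samples cannot reach below 0.10. The script was tested on simulated data, with 50 genes changed by each size. It recovered 14% changed by 0.5, 54% changed by 1 and 94% changed by 2 on the log2 scale. There were 8 false calls among 139, over 22179 genes for GFP-high against GFP-negative. Far fewer genes were changed there than the 30% called here, and the noise was drawn independently. These rates thus do not give the power of this comparison.

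The members and lists were chosen with earlier results of these data known. Genes given with all array values were the 8 largest rises and 8 largest falls among called members (5 fell) and a panel of 14, of which 1 is not reported here. The remaining called members were added after their values were seen. In place of all array values, Cldn5 was given by group ranges and Marveld1 by group means with SD. Cldn24 and Marveld2, which did not pass and are not in the panel, were also given, outside this rule. Figures and tables used Python 3.11.15 and matplotlib 3.10.9.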

Additional observations from a re-analysis of the deposited data

How the results depend on the processing

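Of 505 values of 32 named junction genes under 16 alternatives, 472 kept direction and side of the threshold, 22 lost a call, 9 gained one and 2 changed sign; all 20 called genes kept their direction wherever they were fitted. The sign changes were of Ocln, not called, which ran from -0.24 to 0.066 with 1 array left out. A minimum log2 difference of 1 left 8 junction genes called higher (1249 of all genes higher and 1335 lower). The median of the 57 was 0.10 after quantile normalization, 0.21 without the lowest 30% of genes, which removed Cldn2 and Gja6, and 0.10 to 0.19 with 1 array left out. Counts called higher ran from 14 to 15 and lower from 4 to 7 with 1 array left out. Without moderation of the variances Cldn6 (adjusted p = 0.0531), Cldn11 (0.197) and Marveld3 (0.0702) lost their calls and Cldn5 gained one (0.045); the cause was not tested. Cldn7 passed without the lowest 30% of genes (0.0473), with trend and robust settings (0.0406) and with array weights (0.0473). Same-numbered samples were not treated as pairs in the main fit. Their deviations from the group means correlated at 0.11, -0.03 and -0.002, beside -0.07 to 0.06 for the other combinations. Such values from 3 arrays per group cannot show whether same-numbered samples came from the same pool. With the replicate number as a block 15 junction genes were higher and 4 lower, with a median of 0.16, and Gja5 lost its call (0.0611).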
